A study of Camelina sativa with 159 samples.

Results

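Sub-genome 1 of *Camelina sativa*, an allohexaploid oilseed of the mustard family, comprises chromosomes 4, 7, 8, 11, 14 and 19. Its genes were taken as the rows of the count table whose identifiers begin with Csa04g, Csa07g, Csa08g, Csa11g, Csa14g or Csa19g. There were 29835 such rows, which is 31.6% of 94495 rows in all, against 28615 rows on sub-genome 2, 31836 rows on sub-genome 3 and 4209 rows on unplaced scaffolds. The rows stand for transcripts of 28158 loci, of which 1564 have several rows. Chromosome 11 carried 7354 rows, chromosome 7 carried 4912 and chromosome 19, with the fewest, 4011. No count was recorded in any library for 5324 rows.

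An allohexaploid plant holds several related chromosome sets that came together by hybridization, so that a gene of the diploid ancestor is usually present as one copy on each sub-genome. Such copies are called homoeologues. They can be transcribed equally, or a sub-genome can supply more of the transcript than the others, which is known as genome dominance. A stretch of a sub-genome can also be lost, or replaced by the homoeologous stretch of another chromosome.

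RNA of expanded true leaves of young seedlings was sequenced from 48 germplasm accessions, each an untreated genotype. The late accessions were CN 113662 (52 days to 50% flowering), CN 113692 (55 days), CN 113691 (59.4 days) and CN 113660 (61.9 days), and the 44 early accessions flowered at 43 to 47.9 days. The study scored flowering in field plots and took the leaf RNA from seedlings grown in a greenhouse, so the days were not measured on the plants sequenced. The late accessions had 11 libraries of 646716 to 7180908 counts (median 4196731), and the early accessions had 147 libraries of 167 to 15246389 counts (median 4316978), 10 of them under 200000. Libraries were summed for each accession. The study calls the libraries of an accession biological replicates, and the labels do not name the plants they came from. A p-value between late and early accessions measures the spread between accessions, each counted once, and a p-value among accessions is set against the spread between libraries.

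All 11 late libraries belong to the library code series Cs, against 52 of 147 early libraries, and what separates the series is not given in the sources used here. Series and flowering class can therefore be told apart only among Cs libraries, and values from those alone are given for several results. Within Cs, most late libraries have lower code numbers than every early library. Any difference that follows the code order thus cannot be told apart from flowering class there. Of 148 libraries with at least 200000 counts, 22 were closest in expression to a library of another accession, and 14 early accessions hold such a library. All 3 libraries of the late CN 113662 were closest to the early CN 113672. The leaf label could not be checked against marker genes, because no table used here names these rows, and for the same reason a role is given only for rows that the study annotates. In leaf RNA, a change in cell composition and a change of expression per cell cannot be told apart.

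Sub-genome 1 supplied 31.44% ± 0.193 of an accession's counts (SD, n = 48). Sub-genome 3 supplied 36.02% ± 0.180, which was more in all 48 accessions (mean difference -4.58 percentage points, two-sided permutation test with sign flips, p = 1e-05, the smallest that 100000 resamples can give). Against sub-genome 2, at 31.47% ± 0.134, the difference was -0.0294 percentage points and positive in 22 of 48 accessions (permutation p = 0.474). Without the 100 rows of largest total count that difference was -0.153 percentage points (permutation p = 2e-05), and among Cs libraries of 38 accessions it was -0.118 percentage points (permutation p = 0.0133). Sub-genome 1 was thus at or just under sub-genome 2 in its share of reads, depending on the most abundant rows and on the libraries used.

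The reads of sub-genome 1 were held by few rows. Its 5 largest rows took 4.07% of its counts, the 100 largest took 24.3%, and 773 rows took 50%. The row with the most counts, Csa11g087800.1, had 0.339% ± 0.0422 of all counts in late accessions and 0.315% ± 0.0531 in early accessions (SD, n = 4 and 44). Csa04g046670.1 had 0.362% ± 0.0601 in late and 0.231% ± 0.0790 in early accessions, and it did not pass the test between them (log2 fold change 0.68, SE 0.24, edgeR quasi-likelihood test with Benjamini-Hochberg adjustment, adjusted p = 0.0541). Csa07g032360.1, Csa07g017710.1 and Csa04g053880.1 were the other rows among the 5, with 0.292%, 0.222% and 0.198% of all counts over the 48 accessions.

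Sub-genome 1 as a whole took 31.67% of counts in CN 113662, 31.5% in CN 113692, 31.69% in CN 113691 and 31.48% in CN 113660, against 31.04% to 32.15% in the early accessions. All 4 late values lay inside the early range. The means were 31.59% ± 0.108 in late and 31.43% ± 0.195 in early accessions, a difference of 0.156 percentage points (exact permutation test over the 194580 ways to split the accessions, two-sided, p = 0.122, adjusted p = 0.213 over sub-genome 1 and its 6 chromosomes). The difference was -0.00443 percentage points without the 100 rows of largest total count, and 0.221 percentage points among Cs libraries (exact permutation test, adjusted p = 0.0413, against 0.144 to 0.956 over the other alternatives). Early CN 113682 had the highest share in the series, 32.15%, of which chromosome 7 supplied 6.59% of counts.

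Among the 6 chromosomes, only chromosome 14 passed the adjusted test. Its share was 5.06% in CN 113662, 4.90% in CN 113692, 5.09% in CN 113691 and 4.98% in CN 113660, against 5.073% to 5.388% in the early accessions. The late accessions other than CN 113691 lay below every early accession. The means were 5.007% ± 0.0841 in late and 5.159% ± 0.0601 in early accessions, a difference of -0.152 percentage points (exact permutation test, p = 3.6e-05, adjusted p = 2.52e-04, and 7.19e-04 when adjusted over all 20 chromosomes). Over all 20, chromosomes 3, 5, 9, 10, 12 and 13 of the other sub-genomes also passed (exact permutation test, adjusted p = 0.013 to 0.0467). Their differences ran both ways, such as 0.259 percentage points on chromosome 5 and -0.178 on chromosome 10. Without the 100 rows of largest total count the difference was -0.0747 percentage points and no longer passed (exact permutation test, adjusted p = 0.130, against 2.75e-04 to 0.0440 over the other alternatives run, the highest without CN 113692). Csa14g010760.1, at 0.0982% in late and 0.134% in early accessions, and Csa14g025290.1, at 0.0756% in late and 0.108% in early accessions, were the rows that lowered the chromosome's share most, and the 10 rows that lowered it most summed to -0.148 percentage points, beside 0.101 for the 10 that raised it most. Over all rows of the chromosome the lower ones summed to -0.557 and the higher ones to 0.406 percentage points.

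Chromosome 7 had 5.824% ± 0.0955 of counts in late and 5.615% ± 0.190 in early accessions (exact permutation test, p = 0.0601, adjusted p = 0.140). Its difference of 0.208 percentage points was -0.0441 without the 100 rows of largest total count, and Csa07g017630.1 alone had 0.300% in late and 0.182% in early accessions. Among Cs libraries the chromosome 7 difference was 0.301 percentage points (exact permutation test, adjusted p = 0.00607), and without the early accessions that hold a library closest to another accession it was 0.245 (adjusted p = 9.06e-04), against adjusted p-values of 0.142 to 0.518 over the other alternatives. Chromosome 4 had 5.154% ± 0.0428 in late and 4.985% ± 0.150 in early accessions (exact permutation test, p = 0.0409, adjusted p = 0.140). Chromosomes 8, 11 and 19 differed by -0.0265, -0.0482 and 0.00437 percentage points, with adjusted p-values above 0.05.

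**Figure D1:**
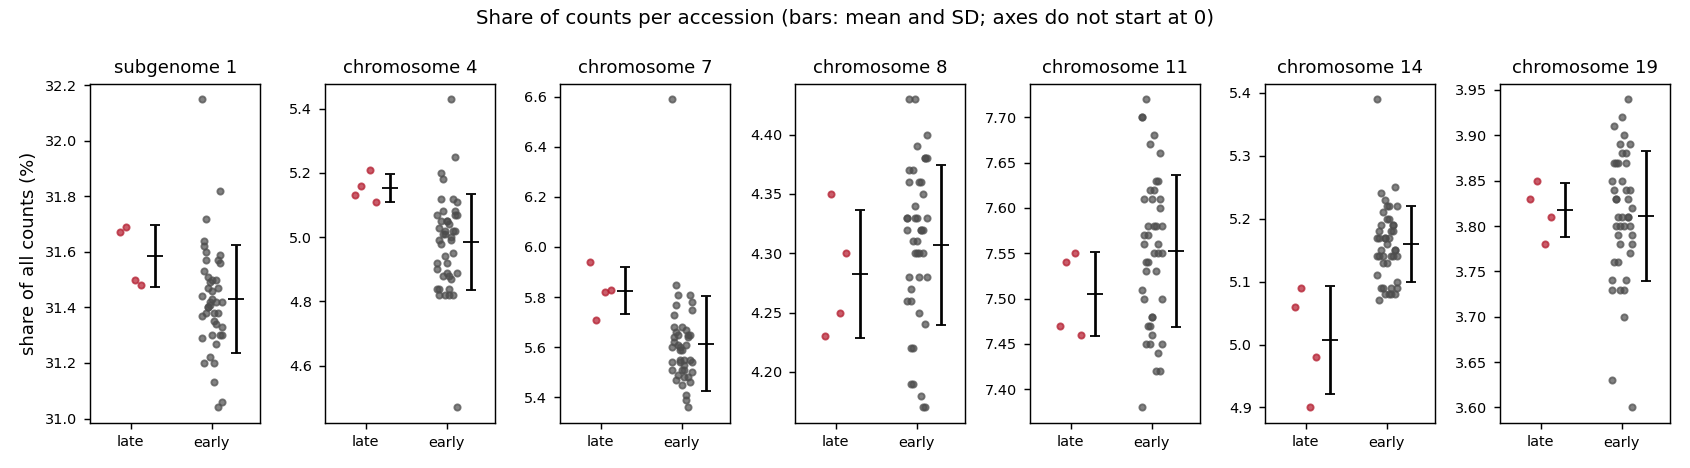
Percent of an accession's counts on sub-genome 1 and on each of its 6 chromosomes, with each point an accession, late (red) to the left of early (grey), bars for the mean and SD (n = 4 and 44), and axes that do not start at 0. On chromosome 14 the late mean was 5.007% against 5.159% in early accessions, and on the other chromosomes all 4 late points lie inside the early range.

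Expression of a row in an accession was defined as more than 3 normalized counts in each of its libraries that held at least 200000 counts. By this measure 46.03% ± 1.61 of the rows of sub-genome 1 were expressed (SD, n = 48). That share was lower than that of sub-genome 2 in all 48 accessions (difference -1.33 percentage points) and higher than that of sub-genome 3 in all 48 (difference 0.76), each with permutation p = 1e-05. Sub-genome 1 therefore had a larger expressed share than sub-genome 3 while it supplied a smaller share of the reads.

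The expressed rows formed a large shared core. Of all rows of sub-genome 1, 8733 (29.3%) were expressed in every accession, 8157 (27.3%) in 1 to 47 accessions and 12945 (43.4%) in none. The core held 30.6% of the rows of sub-genome 2 and 29.3% of those of sub-genome 3. Within sub-genome 1 it ranged from 27.7% of the rows of chromosome 7 to 31.2% of those of chromosome 8. Expression in a single accession was seen for 496 rows.

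In late accessions 46.41% (CN 113662), 44.97% (CN 113692), 46.95% (CN 113691) and 47.12% (CN 113660) of the rows were expressed, against 39.42% to 48.45% in early accessions, with CN 113754 lowest. The means were 46.36% ± 0.975 in late and 45.99% ± 1.66 in early accessions (difference 0.365 percentage points, exact permutation test, p = 0.650). Among Cs libraries the difference was -2.75 percentage points, with means of 46.36% in late and 49.11% in early accessions. Fewer libraries of an early accession then had to pass, while the late libraries were the same. The early ones were those of at least 200000 counts among 52 Cs libraries over 34 accessions. The number of libraries and the series thus changed together for early accessions, and their parts in that value cannot be told apart. With every accession thinned to the smallest total the difference was 0.00876. No row was expressed in all 4 late accessions and in no early accession, and none in all 44 early accessions and in no late one.

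Rows of sub-genome 1 varied among the early accessions about as much as those of the other sub-genomes. The spread of a row was taken as the SD of its log2 CPM over the 44 early accessions, where CPM is counts per 1000000 of an accession's total after trimmed-mean (TMM) scaling. Its median was 0.335 over 17072 rows of sub-genome 1, 0.329 on sub-genome 2 and 0.332 on sub-genome 3. It depended on level, with a median of 0.613 for rows under 1 CPM and 0.226 for rows of 30 to 100 CPM. An SD over 1 was found for 858 rows of sub-genome 1 (5.03%), against 3.79% of rows on sub-genome 2 and 5.01% on sub-genome 3. Chromosome 7 had the highest share of such rows within sub-genome 1, 6.74%, and chromosome 8 the lowest, 4.31%.

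Among rows averaging at least 10 CPM, the 6 with the largest spread had 0 CPM in at least 1 early accession and were abundant in others. Csa07g049730.1, with an SD of 3.87, had 0 CPM in 13 early accessions, a median of 0.123 CPM and 460 CPM in CN 113672. Csa07g036260.1 (SD 3.36) had a median of 4.58 CPM and a highest value of 95.4 CPM. Csa07g062400.1 (SD 3.16) had a median of 26.4 CPM and a highest value of 100 CPM, and Csa11g026490.1 (SD 2.99) had a median of 19.9 and a highest value of 40.5 CPM.

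Csa08g059890.1 (SD 3.22) had 29.5, 44.9, 56.5 and 45.5 CPM in CN 113662, CN 113692, CN 113691 and CN 113660, against a median of 0.824 CPM and a highest value of 57.9 CPM in early accessions. Csa14g044480.1 (SD 2.80) had an early median of 0.759 CPM and a highest value of 140 CPM. At the other end, Csa04g051720.1 lay between 53.7 and 75.2 CPM in all 44 early accessions, with an SD of 0.0818. Csa08g005320.1, Csa19g039150.1, Csa11g019820.1, Csa19g018650.1 and Csa19g016390.1 had SDs of 0.0828 to 0.0922.

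The early accessions differed from each other by more than their own libraries did for 8277 of 16202 rows of sub-genome 1 (51.1%) at an adjusted p under 0.05 in edgeR. This was the same as over all rows, where 51.1% of 49671 were called. Among rows of at least 10 CPM, 3825 of 5894 passed (64.9%, against 65.2% over all such rows). Without the early accessions that hold a library closest to another accession, 8086 rows passed (52.3%, against 52.4% over all rows).

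Between late and early accessions, 1404 rows of sub-genome 1 were lower and 1023 were higher in the late accessions, of 17072 tested (edgeR adjusted p under 0.05). That is 14.2% of the rows, against 14.3% over all 52307 rows tested in the series, of which 8.28% were lower and 6% higher. The share was 14.1% on sub-genome 2 and 14.7% on sub-genome 3. The change exceeded 2-fold for 662 of the called rows, and the median size was 0.66 on the log2 scale. Each chromosome had calls in both directions, with 198 lower and 152 higher on chromosome 4, 230 and 178 on chromosome 7, 384 and 257 on chromosome 11, 216 and 151 on chromosome 14, and 179 and 150 on chromosome 19. Chromosome 8 had 197 lower rows and 13.6% of its rows called in all. The called share ran between 12.9% on chromosome 14 and 15.4% on chromosome 11.

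The number of calls depended on single accessions and on the libraries. It was 760 lower and 522 higher without CN 113692, 741 and 621 without CN 113660, 927 and 730 without CN 113691, and 560 and 521 among Cs libraries only. Of the 2427 calls, 2312 could be tested among Cs libraries, where all 2312 had the same sign and 885 passed. Without early CAM 219, whose 3 libraries were each closest to a library of another accession, there were 1232 lower and 1233 higher rows, so that lower rows made up 50% of calls instead of 57.8%.

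The late accessions departed from the early range to different degrees. These shares were counted for the tested rows of sub-genome 1 only, so whether they differ from those of the other sub-genomes was not tested. In CN 113692 19.2% of rows lay outside the range of all 44 early accessions, 1918 of them below it. The share was 14% in CN 113660, 9.68% in CN 113691 and 8.42% in CN 113662, against 0.773% to 12.3% (median 4.28%) for an early accession set against the other early ones. CN 113692 has 2 libraries with 4968195 counts together, the smallest total of any accession. The early accession with the highest share, CN 113656, has the smallest early total, 5654762 counts. CAM 275, with the largest total (30119735), had 0.814% of rows outside, and CN 113660 has 15028670 counts. The part of depth in these shares was not tested. All 4 late accessions lay below all 44 early ones for 64 rows (0.375%, against 0.398% over all rows tested) and above them for 16 rows (0.0937%, against 0.128%).

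**Figure D2:**
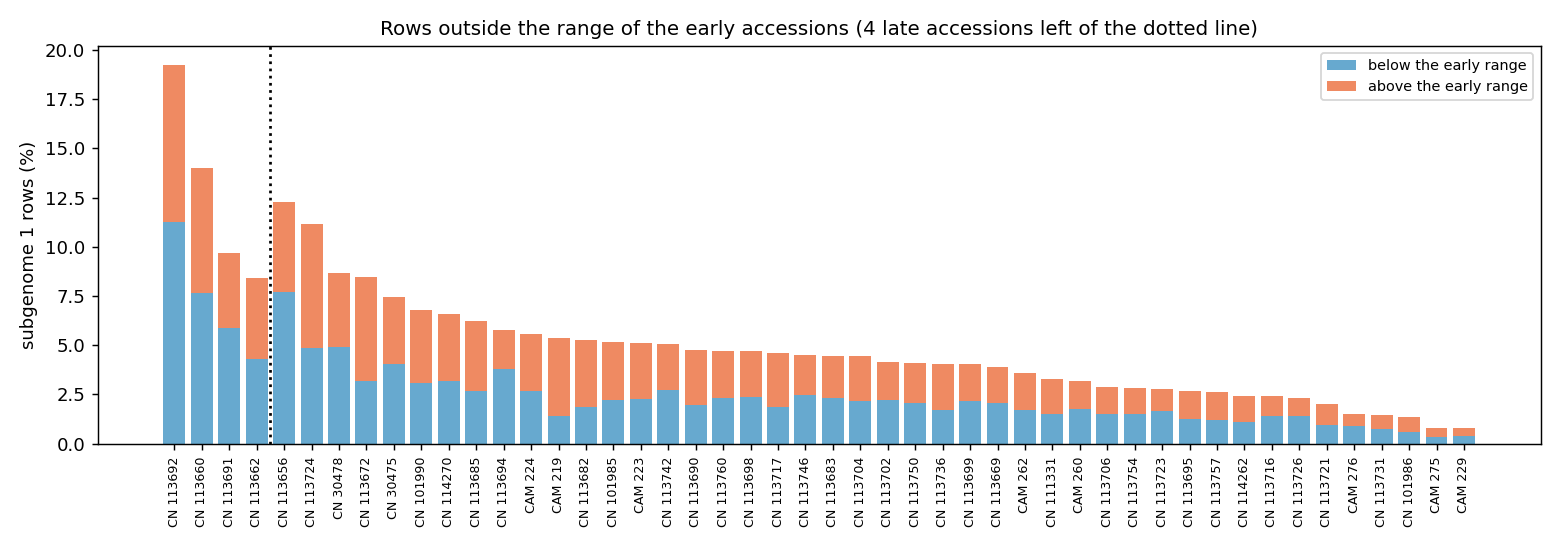
Percent of tested sub-genome 1 rows whose value in an accession lies below or above the range of the early accessions (stacked bars), with the 4 late accessions left of the dotted line and each of the 44 early accessions set against the other 43. CN 113692, which has the smallest total count, has 19.2% and CN 113660 14% of rows outside. The highest early accession, CN 113656, which has the smallest early total, has 12.3%. Rows of the other sub-genomes were not counted in this way.

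The rows most strongly lower in late accessions included the sub-genome 1 copy of *SOC1*, Csa04g063650.1, a MADS-box transcription factor gene that promotes flowering. It had 5.45 CPM in CN 113662, 0.40 in CN 113692, 0.989 in CN 113691 and 0.209 in CN 113660, against 9.03 to 30.5 CPM (median 17.4) in early accessions. Every late accession was below every early one, and CN 113662 was nearest to them (log2 fold change -3.21, SE 0.37, edgeR adjusted p = 2.02e-08). Csa11g068510.1, another row of the study's flowering-related module, had 17.6, 22, 15.1 and 7.93 CPM in the same order, against 28 to 74.1 CPM in early accessions (log2 fold change -1.54, SE 0.20, edgeR adjusted p = 2.82e-07).

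Of the 55 rows of sub-genome 1 in that module, which the study calls tan, 47 were lower and none was higher, with a median log2 fold change of -1.21, beside a median of -0.02 over all rows of sub-genome 1 tested. Over all rows tested, 8.28% were lower and 6% higher. Of the module's 109 rows elsewhere, 98 were lower and none was higher, with a median of -1.42. The study chose this module on the same samples, so its direction is not independent evidence. Of these 55 rows, 48 were below all early accessions in CN 113660, 43 in CN 113692, 28 in CN 113691 and 18 in CN 113662. Of the 17072 rows of sub-genome 1 tested, 1304, 1918, 1001 and 730 were below in the same order. The median of the 55 module rows stood at 12.5% of its early mean in CN 113660, 17.3% in CN 113692, 50.6% in CN 113691 and 64.1% in CN 113662.

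Several of the rows that were lower were close to absent in the late accessions. Csa11g034030.1 had 0, 1.20, 0 and 0 CPM in CN 113662, CN 113692, CN 113691 and CN 113660, against a median of 6.42 and a highest value of 9.40 CPM in early accessions (log2 fold change -5.27, SE 1.05, edgeR adjusted p = 5.55e-04). Csa11g045050.1 had 0.224, 0.40, 0.152 and 0 CPM, against 0.127 to 3.56 CPM (median 1.68) in early accessions (log2 fold change -3.39, SE 0.62, edgeR adjusted p = 1.59e-04). Csa08g057240.1, with 0, 0, 0.152 and 0.139 CPM against an early median of 1.20 CPM, and Csa08g055070.1, with 0.799 CPM in CN 113692 and 0 in the other late accessions against an early median of 1.16 CPM, also fell (edgeR adjusted p = 0.0096 and 0.00676). At these levels a late value rests on at most a few reads. Csa08g057240.1 and Csa08g055070.1 were each also at 0 in 1 early accession and Csa11g034030.1 in 2, while Csa11g045050.1 had reads in every early accession.

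Csa04g015010.1 had a single read among the late accessions, in CN 113692, and 0 to 6.36 CPM (median 3.79) in early accessions (edgeR adjusted p = 0.00496). Csa19g047870.1 had 0 of 47421435 late counts, which allows up to 3 counts or 0.0633 CPM, and 723 reads or 1.08 CPM over the early accessions. On reads pooled over each group it was thus at least 17.1-fold lower, a bound that leaves out the spread between accessions. The test between accessions called this row lower (log2 fold change -6.98, SE 2.2, edgeR adjusted p = 0.0269). Its call was lost without any 1 of the 4 late accessions (edgeR adjusted p = 0.0615 to 0.0864, against 9.62e-04 at the lowest over the alternatives), and 11 early accessions also had no read. Csa11g016080.1, Csa04g034240.1 and Csa07g062860.1 likewise were at or near 0 in most late accessions, with edgeR adjusted p-values of 0.0207, 0.0305 and 0.036, and lost the call when a late accession was left out.

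A pair of neighbouring rows on chromosome 7 that the study annotates with ADP binding and defence response was low in the later accessions. Csa07g017920.1 had 16.8 CPM in CN 113662 and 0, 0 and 0.0696 CPM in CN 113692, CN 113691 and CN 113660, against 23.8 to 65.8 CPM in early accessions. CN 113662 was thus the nearest to the early range, and the others were close to 0 (log2 fold change -3.15, SE 0.52, edgeR adjusted p = 3.83e-05). Its neighbour Csa07g017930.1 had 11.7, 0.799, 0.457 and 0 CPM in the same order, against 1.58 to 25.1 CPM (log2 fold change -2.10, SE 0.64, edgeR adjusted p = 0.0215), and lost the call in several settings (adjusted p over them 6.69e-05 to 0.103). Csa07g017820.1, annotated with cytokinin metabolism, was at 0.747, 0, 0.457 and 0.139 CPM, below all early accessions at 1.27 to 6.10 CPM (log2 fold change -2.83, SE 0.40, edgeR adjusted p = 2.58e-06).

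*AGL103*, Csa07g033470.1, a MADS-box gene, was detected in CN 113662 at 0.598 CPM and in no other late accession, against 0.243 to 1.52 CPM in early accessions (log2 fold change -2.16, SE 0.49, edgeR adjusted p = 0.00206). The neighbouring rows Csa11g001430.2 and Csa11g001440.1, annotated with vacuolar acidification, were lowest in CN 113660. Csa11g001430.2 had 6.80, 6.59, 7.76 and 0.765 CPM in the order of flowering time, against 7.12 to 12.2 CPM in early accessions (log2 fold change -0.86, SE 0.20, edgeR adjusted p = 0.00264). Csa11g001440.1 had 14.9, 24.6, 22 and 2.23 CPM, against 21.4 to 33.9 CPM (log2 fold change -0.81, SE 0.20, edgeR adjusted p = 0.00398). *SPL4*, Csa14g063510.1, a squamosa promoter binding protein-like gene, had 3.51, 2.80, 1.52 and 1.11 CPM, inside the early range of 0.594 to 11.5 CPM (log2 fold change -0.61, SE 0.52, edgeR adjusted p = 0.457).

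On sub-genome 1, 13 genes at or beside the study's marker SNPs were listed, and 9 could be tested, of which 1 fell and 4 rose, where over all rows 8.28% were lower and 6% higher. The study chose these SNPs on the same accessions, by association with the module's expression and with flowering time. The counts are therefore not independent evidence. The study places its SNPs in 4 of these genes, the phytoene desaturase, *SC35*, *SNX2b* and peptidase M50 rows, and the others are their neighbours. The phytoene desaturase row Csa11g040110.1, a carotenoid synthesis gene, had 43.7, 32.6, 46.9 and 50.7 CPM, below all early accessions at 50.8 to 75.6 CPM (log2 fold change -0.41, SE 0.08, edgeR adjusted p = 3.28e-04). *SC35* (Csa11g101310.1), a splicing factor gene, had 12.9, 15.4, 14.6 and 19.1 CPM against 7.96 to 16.8 CPM (log2 fold change 0.34, SE 0.11, edgeR adjusted p = 0.0355), and its call was lost in several settings (highest edgeR adjusted p 0.306). *SNX2b* (Csa08g057320.1), a sorting nexin gene, and the peptidase M50 row Csa14g006410.1 did not pass, with log2 fold changes of 0.08 and -0.31 and edgeR adjusted p-values of 0.656 and 0.0897. Among the neighbours, the laccase row Csa08g057310.1 had 1.20, 2.40, 1.14 and 3.96 CPM, against 0.0772 to 1.53 CPM in early accessions (log2 fold change 1.98, SE 0.34, edgeR adjusted p = 6.16e-05). Csa14g006420.1, a calcium-binding tetratricopeptide protein gene, had 25.1, 15.2, 19.9 and 18.8 CPM against 9.99 to 23.3 CPM (log2 fold change 0.54, SE 0.13, edgeR adjusted p = 0.00348, and 0.0553 without CN 113662, the highest over the alternatives, against 8.29e-04 at the lowest). *KAO1* (Csa14g006430.1), a gibberellin synthesis gene beside it, had a log2 fold change of -0.23 (edgeR adjusted p = 0.603). *WRKY26* (Csa08g057340.1) rose (edgeR adjusted p = 0.0428), and its call was lost in several settings, with 0.378 at the highest, without CN 113662.

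The rows most strongly higher in late accessions carry no annotation here. Csa04g011270.1 had 2.39 CPM in CN 113662, 6.19 in CN 113692, 4.79 in CN 113691 and 5.01 in CN 113660, and was at 0 in 38 of 44 early accessions. Only CN 113672 among the early accessions exceeded 1 CPM, with 2.19 CPM, and the next had 0.069 CPM (log2 fold change 6.01, SE 0.60, edgeR adjusted p = 5.38e-10, against 0.0906 in DESeq2, the highest over the alternatives, and 4.93e-28 at the lowest). Csa14g014390.1 had 0.373, 1.80, 2.89 and 3.69 CPM, against 0 to 0.772 CPM in early accessions (log2 fold change 4.27, SE 0.47, edgeR adjusted p = 6.05e-09). Csa08g040520.1 had 257 and 466 CPM in CN 113662 and CN 113692 and 14.5 and 41.3 CPM in CN 113691 and CN 113660, against an early median of 14.3 CPM, with CAM 219 at 109 CPM and the next early accession at 41.9 CPM (log2 fold change 3.46, SE 0.39, edgeR adjusted p = 1.12e-08).

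Other rows were raised in some late accessions more than in others. Csa07g047380.1 had 13.2, 30.8, 2.59 and 27.8 CPM, against 0.158 to 9.42 CPM in early accessions (log2 fold change 3.11, SE 0.40, edgeR adjusted p = 3.02e-07). Csa07g062500.1 had 2.99, 3.80, 3.81 and 1.67 CPM, against 0 to 1.90 CPM (log2 fold change 3.09, SE 0.50, edgeR adjusted p = 2.65e-05), and Csa04g035120.1 had 15.4, 7.99, 0.989 and 1.32 CPM, against 0 to 6.16 CPM (log2 fold change 3.38, SE 0.49, edgeR adjusted p = 4.70e-06). Csa07g022120.1 had 13.8 CPM in CN 113692 and 0.896 to 2.16 CPM in the other late accessions, and its log2 fold change of 3.19 was 1.66 without CN 113692 (edgeR adjusted p = 0.101, and 2.82e-05 at the lowest over the alternatives). Csa07g009910.1 had 2.17, 2.80, 0.761 and 0.696 CPM (log2 fold change 3.06, SE 0.66, edgeR adjusted p = 0.00132, and 0.0907 with the share of Cs counts as a covariate, the highest over the alternatives, against 7.67e-04 at the lowest). CN 113672, which CN 113662 resembles, was the highest early accession for 3 of the 10 higher rows.

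**Figure D3:**
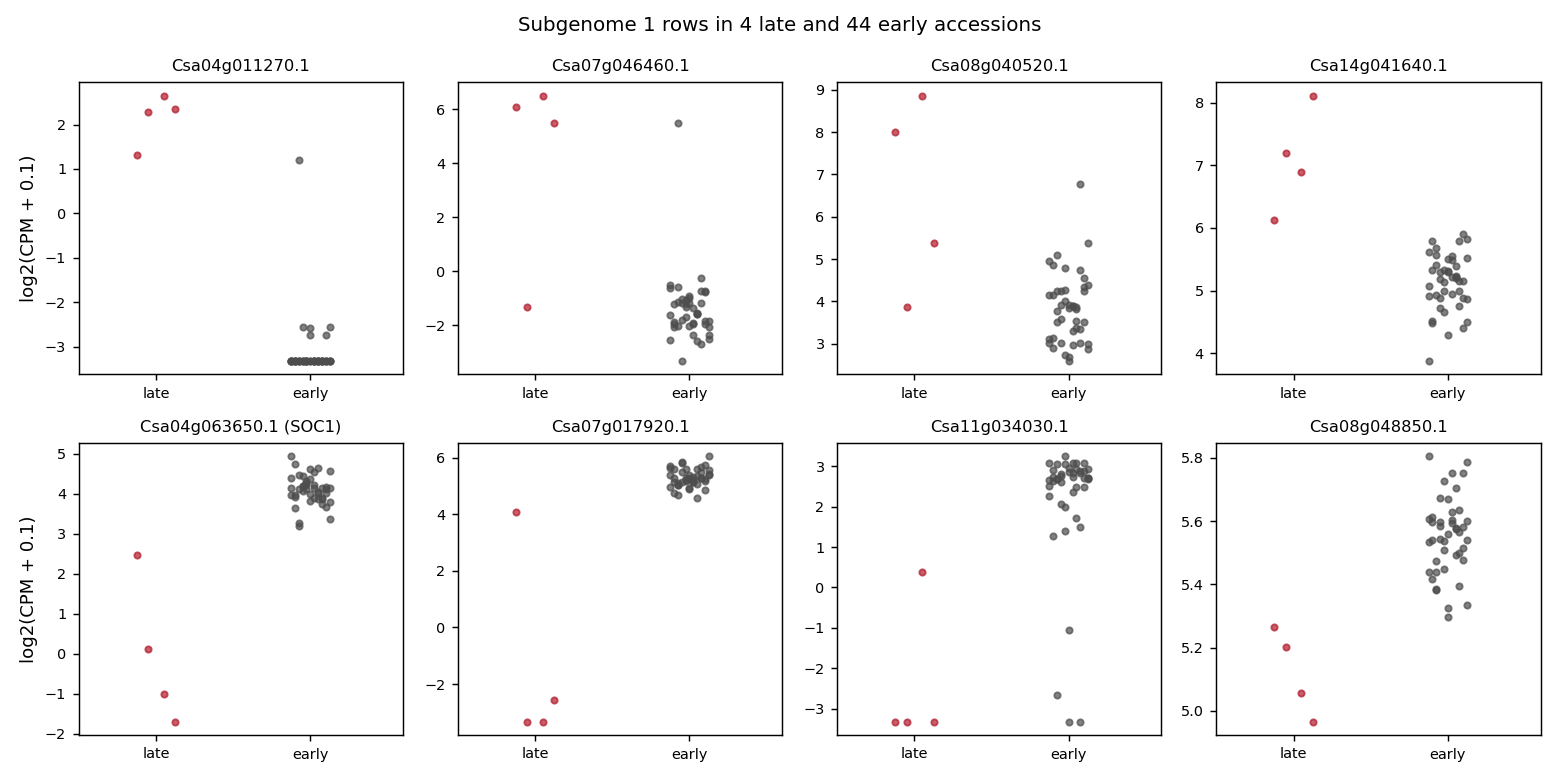
Level of 8 sub-genome 1 rows on a log axis, log2(CPM + 0.1), in each of the 4 late accessions (red) to the left of the 44 early accessions (grey). The upper rows were higher and the lower rows lower in late accessions. The late points of the *SOC1* row Csa04g063650.1 and of Csa08g048850.1 lie below every early point, those of Csa14g041640.1 lie above every early point, and Csa07g046460.1 has 1 late point among the early ones and 1 early point among the late ones.

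Calls were then counted along the chromosomes. Locus numbers, the digits of an identifier after the letter g, were taken to follow the chromosome, and tested rows were grouped in bins of 100 locus numbers. Over 313 bins with at least 20 rows, a median of 13.9% of rows was called, with a range of 0% to 35%, and 4 bins had no call. The bin with the most calls, Csa19g011010.1 to Csa19g012000.1, had 19 of 78 rows called, 14 lower and 5 higher (24.4%). Bins Csa11g009010.1 to Csa11g009990.1 and Csa07g046030.1 to Csa07g047000.1 had 18 of 65 (27.7%) and 17 of 70 (24.3%). The bin from Csa19g014010.1 to Csa19g015000.1 had 4 lower and 11 higher calls, against 12 lower and 5 higher in the chromosome 7 bin. Bins were not tested.

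**Figure D4:**
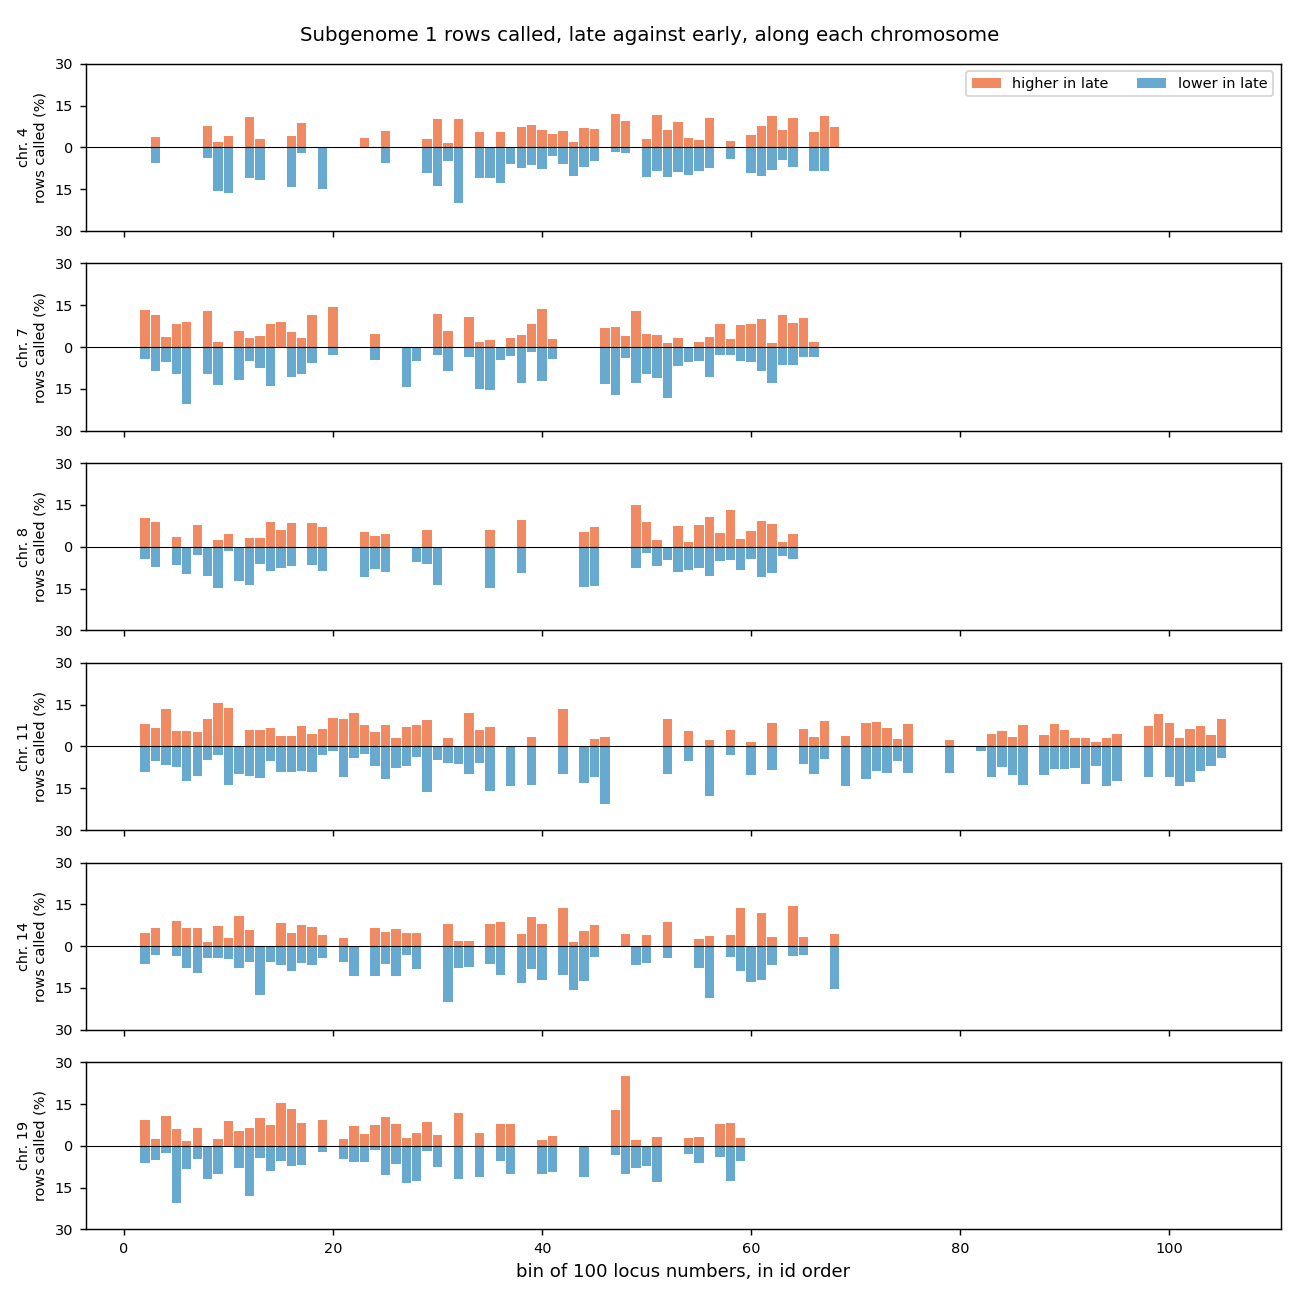
Percent of tested rows called higher (up) and lower (down) in late accessions in each bin of 100 locus numbers along the 6 chromosomes of sub-genome 1, for bins with at least 20 tested rows, so that gaps are bins with fewer rows or no call. Calls in both directions occur along every chromosome, and no bin had more than 35% of its rows called.

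Consecutive loci called in the same direction formed 12 runs of 3 or more lower and 17 runs of 3 or more higher, and none was longer than 4. On chromosome 7, the run Csa07g046460.1 to Csa07g046490.1 was higher in late accessions. Csa07g046460.1 had 67.9, 91.1, 0.304 and 45.2 CPM in CN 113662, CN 113692, CN 113691 and CN 113660, against an early median of 0.234 CPM, with CN 113672 at 44.9 CPM and the next early accession at 0.744 CPM (log2 fold change 5.23, SE 0.75, edgeR adjusted p = 3.35e-06). CN 113691 was at the level of the early accessions, and the other late accessions were far above nearly all of them. The rows Csa07g046470.1, Csa07g046480.1 and Csa07g046490.1 rose by log2 fold changes of 1.40, 1.80 and 2 (edgeR adjusted p = 0.00711, 7e-04 and 2.79e-04), with CN 113692 or CN 113662 highest. The call of Csa07g046460.1 was lost with the share of Cs counts as a covariate (edgeR adjusted p = 0.0679), those of Csa07g046470.1 and Csa07g046480.1 without CN 113692 (0.0845 and 0.0515), and that of Csa07g046490.1 without CN 113662 (0.174). A few loci before them, Csa07g046310.1 to Csa07g046340.1 fell, by 0.34 to 1.43 on the log2 scale.

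On chromosome 14, Csa14g041640.1 had 69.9, 118, 147 and 277 CPM, above all early accessions at 14.6 to 60 CPM (log2 fold change 2.07, SE 0.20, edgeR adjusted p = 8.05e-11). Its value was highest in CN 113660, the latest accession. The next loci, Csa14g041650.1 and Csa14g041660.1, rose by 1.19 and 1.46 but had at most 4.99 CPM in a late accession. Csa14g041650.1 had 0.747, 3.80, 0.228 and 2.02 CPM, against 0.207 to 1.41 CPM in early accessions, so that CN 113662 and CN 113691 lay inside the early range, and its call was lost without CN 113692 (edgeR adjusted p = 0.346). On chromosome 8, Csa08g048850.1 had 38.4, 33.2, 36.7 and 31.2 CPM, below all early accessions at 39.2 to 55.8 CPM (log2 fold change -0.43, SE 0.07, edgeR adjusted p = 4.93e-05), and its neighbours Csa08g048840.1 and Csa08g048860.1 fell by 1.29 and 0.55 on the log2 scale, both calls being lost among Cs libraries (edgeR adjusted p = 0.125 and 0.0967).

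On chromosome 11, the run from Csa11g020950.1 fell. That row had 1.79, 1.80, 1.45 and 1.46 CPM, against 1.6 to 10.2 CPM (median 7.29) in early accessions (log2 fold change -2.12, SE 0.34, edgeR adjusted p = 2.67e-05). Csa11g005240.1 had 20.5, 22.4, 25.5 and 14.3 CPM, against an early median of 69.6 CPM (log2 fold change -1.58, SE 0.32, edgeR adjusted p = 6.89e-04), and the following 3 loci of its run fell by 0.37 to 0.92 on the log2 scale. Csa11g001140.1 rose, with 14.2, 20.8, 14 and 14.1 CPM, above all early accessions at 6.40 to 13.6 CPM (log2 fold change 0.68, SE 0.13, edgeR adjusted p = 2.68e-04, and 0.0656 among Cs libraries, the highest over the alternatives, against 5.38e-05 at the lowest).

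Some runs rested on CN 113692. On chromosome 4, Csa04g016370.1 had 15.4, 47.1, 22.5 and 45.6 CPM, against 1.70 to 17.7 CPM in early accessions (log2 fold change 2.32, SE 0.32, edgeR adjusted p = 1.34e-06). Its neighbours Csa04g016450.1 and Csa04g016460.1 had 18.8 and 12.2 CPM in CN 113692 and at most 2.16 and 2.78 CPM in the other late accessions, and without CN 113692 their edgeR adjusted p-values were 0.110 and 0.223, against 2.07e-05 and 2.56e-04 at the lowest over the alternatives. The run Csa19g014960.1 to Csa19g014990.1 on chromosome 19 rose by log2 fold changes of 1.49 to 2.86, and all 4 rows lost the call without CN 113692.

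A search in each accession separately, chosen after the data had been seen, found a stretch at the start of chromosome 14 that was nearly silent in late CN 113691. The rows with a mean of at least 3 CPM were put in order, and each accession's log2 CPM was set against the early median of the row. From Csa14g001150.1 to Csa14g001720.1, all 25 consecutive rows were below all 44 early accessions in CN 113691, with a median difference of -2.67 on the log2 scale (rows from -3.55 to -1.41). The same median lay between 0.04 and 0.16 in the other late accessions and between -0.09 and 0.23 in the early ones. Summed over the stretch, CN 113691 had 65.9 CPM, against 493 to 570 CPM in the other late accessions and 506 to 675 CPM (median 548) in early accessions, which is 12% of the early median. The accessions were chosen by this difference, so it is given without a test.

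Single rows of the stretch show how far it departed. Csa14g001340.1 had 17 CPM in CN 113691, 125 to 154 CPM in the other late accessions and 168 to 247 CPM in early accessions. Csa14g001610.1 had 8.98 CPM in CN 113691, against 58.3 to 95.1 CPM in early accessions. At Csa14g001730.1, the next row, CN 113691 had 17.5 CPM against 18.1 to 36.2 CPM, and at Csa14g001810.1 it had 191 CPM, inside the early range of 139 to 258 CPM. Over the 10 rows after the stretch the median difference was 0.06, and only 1 row was below all early accessions, so the low level ended within a few loci.

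The 3 libraries of CN 113691 did not share the stretch equally. The first had 22 counts in it of 5848811, the second 32 of 3604700 and the third 812 of 4196731, which is 3.76, 8.88 and 193 counts per 1000000, against 454 to 732 (median 560) in each of the other 145 libraries of at least 200000 counts. The first and second libraries were therefore almost without reads from these loci, and the third had an intermediate number. None of the 3 libraries was closest to another accession in its expression. The stretch accounted for little of the low share of chromosome 14 in late accessions, since without it the difference was -0.136 percentage points (exact permutation test, p = 3.75e-04).

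The start of chromosome 3, on sub-genome 2, moved the other way in the same accession. Chromosomes 14, 3 and 17 carry the *SPL4* homoeologues in the study, away from their starts, so these chromosomes were looked at. The files used here do not pair homoeologous rows. The chromosome 3 rows were the longest stretch that the search found there in CN 113691, so a shifted level was a condition of their choice. The chromosome 17 rows were taken by locus number alone, so these sets were not chosen alike and their levels are described only. From Csa03g001040.1 to Csa03g001740.1, 24 rows were higher in CN 113691 by a median of 0.90 on the log2 scale, and 19 of them were above all early accessions. Their sum was 1029 CPM in CN 113691, against 550 to 600 CPM in the other late and 444 to 685 CPM (median 519) in early accessions, or 198% of the early median. The libraries of CN 113691 had 998, 1109.7 and 878 counts per 1000000 there, against 452 to 727 in the other 145. The library with the most reads on the chromosome 14 stretch thus had the fewest on the chromosome 3 stretch. At the start of chromosome 17, on sub-genome 3, 31 rows summed to 100.5% of the early median in CN 113691. Whether the genome of CN 113691 differs there was not tested, since the count table holds no genomic reads.

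**Figure D5:**
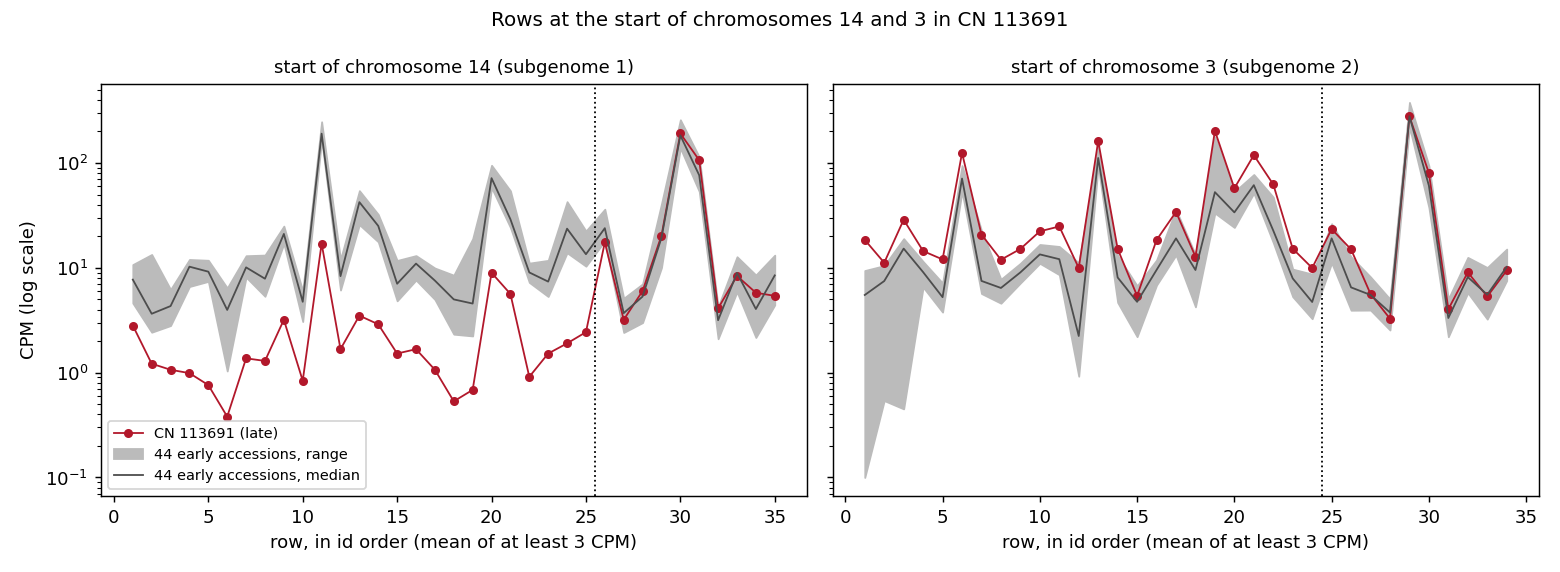
CPM on a log axis of consecutive rows at the start of chromosome 14 (left) and chromosome 3 (right) in late CN 113691 (red points) and as the median and range of the 44 early accessions (line and grey band, drawn no lower than 0.1 CPM), with a dotted line at the end of the stretch. On chromosome 14, 25 rows of CN 113691 lie below the band and the following rows return to it, and on chromosome 3, 19 of 24 rows lie above the band.

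The same search found 27 stretches of at least 8 rows with a running median beyond 0.5 on the log2 scale on sub-genome 1, in 15 accessions, over 11382 rows. Sub-genome 2 had 9 stretches in 6 accessions over 11209 rows and sub-genome 3 had 72 in 35 accessions over 12022 rows, with at most 25, 24 and 128 rows on sub-genomes 1, 2 and 3. The numbers were not tested against each other, since stretches of related accessions are not independent. On sub-genome 1 the late accessions had 4 higher and 3 lower stretches, and the early accessions 7 higher and 13 lower ones. They fell into 14 regions, of which 10 held a stretch of a single accession, the chromosome 14 region among them, and 4 of several. An accession is counted only where its running median passes the limit over at least 8 rows, so others can be shifted too. In the region from Csa07g013550.1, counted for CN 113724 alone, 3 early accessions had a median difference below -1.

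The region shared by the most accessions was on chromosome 11. From Csa11g022480.1 to Csa11g023040.1, 16 rows had a median difference from the early median of 0.84 in late CN 113692, 1.04 in early CN 113672 and 0.68 in early CN 111331, and more than any of these in late CN 113662. The same median was -0.72 in CAM 223, -0.55 in CN 114270 and -0.52 in CN 113706, all of them early. Their sum was 605 CPM in CN 113662 and 491 CPM in CN 113692, against an early median of 357 CPM with 731 CPM in CN 113672. On chromosome 4, 10 rows from Csa04g061170.1 to Csa04g061350.1 were higher by 1.42 in CN 113692, a sum of 1981 CPM against an early median of 943 CPM. Regions whose stretches were found in early accessions alone included 8 rows from Csa07g013550.1 on chromosome 7, at -3.35 in CN 113724, -3.00 in CN 113754 and -2.83 in CN 113723, 15 rows from Csa19g014670.1 on chromosome 19, at -1.10 in CN 113754 and -1.09 in CN 114270, and 9 rows from Csa08g063390.1 on chromosome 8, at 1.11 in CN 113690, the earliest accession.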

How the data were processed

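Leaf RNA libraries (TruSeq) were sequenced by the authors, who trimmed the reads with Trimmomatic 0.32, aligned them with STAR 2.7.10a and counted them per transcript with featureCounts 2.0.1, per the submitters' processing notes. The authors deposited raw counts for each library, without normalization. The genome build and the strand setting are not given in the sources used here, so rows that overlap, lie antisense or have near-identical homoeologues can share reads.

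The members, lists and rules were chosen with earlier results of these data known. Libraries were assigned to accessions and flowering classes by the labels, and 1 library of an accession with no class (Licalla) was left out. The replicate libraries of an accession were compared first. Their counts differed by a chi-square per gene of 1.46 in the most similar of 159 pairs (median 4.20, with 1 for counting noise), so none was counted as a duplicate.

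Counts were summed per accession. Late and early accessions were compared with edgeR 4.0.16 (R 4.3.3) by its quasi-likelihood test after filterByExpr and TMM, adjusted over all rows, with a threshold of 0.05. Differences among early accessions were tested by edgeR on libraries of at least 200000 counts. Log2 CPM used a prior count of 2, and normalized counts came from DESeq2 1.42.0. Alternatives are given in the closing section. Shares were tested by exact or sign-flip permutation. Rows were named by rule: the 10 higher and 10 lower with the largest fold change among rows called, with a mean of at least 1 CPM in a group and all late accessions on the same side of the early median, rows in runs, rows the study annotates, and the rows of largest share or of extreme spread. Rows of the stretches, those with the largest effect on a chromosome's share, and Csa11g068510.1 were named after their values were seen. On simulated counts for 52307 rows, the test of late against early recovered 57.9% of rows changed by 1 and 89.5% of rows changed by 2 on the log2 scale, and 5.7% of its calls were false. For 6000 rows simulated for the test among early accessions, 84.5% were recovered and 6.11% of calls were false. No identifier matched the RefSeq gene table, so no names, coordinates or sequences were taken from it.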

Additional observations from a re-analysis of the deposited data

Results flagged for a closer look

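For 14 of 77 results examined, 1 of the 4 late accessions stood apart from the other late accessions by a gap above the 95% critical value of Dixon's test. Chance gives this for about 1 in 20 groups.

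CN 113662, the earliest of the late accessions, stood above the others for 6 rows, with 5.45 CPM at Csa04g063650.1 (*SOC1*, others 0.209 to 0.989 CPM), 16.8 CPM at Csa07g017920.1 (others at most 0.0696 CPM), 11.7 CPM at Csa07g017930.1 (others at most 0.799 CPM), 4.18 CPM at Csa07g062860.1, 0.598 CPM at Csa07g033470.1 and 0.373 CPM at Csa04g034240.1, where the others had 0. All 6 rows were lower in late than in early accessions.

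CN 113692 stood above the others for 6 rows. It had 18.8 CPM at Csa04g016450.1 (others 0.672 to 2.16 CPM), 13.8 CPM at Csa07g022120.1 (others 0.896 to 2.16 CPM) and 20.8 CPM at Csa11g001140.1 (others 14 to 14.2 CPM), which were higher in late accessions. At Csa11g034030.1, Csa08g055070.1 and Csa04g015010.1, which were lower in late accessions, it had 1.20, 0.799 and 0.20 CPM and the others had 0. At Csa04g015010.1 this was 1 read. For the 6 rows at which all other late accessions had 0, any read sets the accession apart, so the 1 in 20 does not apply to them.

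CN 113660, the latest accession, stood below the others at Csa11g001430.2, with 0.765 CPM against 6.59 to 7.76 CPM. CN 113691 stood below the others in the stretch from Csa14g001150.1 on chromosome 14, with 65.9 CPM in sum against 493 to 570 CPM. That stretch was chosen because CN 113691 was low there, so the rate given above for chance does not apply to it.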

How the results depend on the processing

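Apart from rows named singly, 100 results kept their direction, call or size under an alternative, 17 moved, 5 gained and 1 lost the threshold, and 3 reversed. Other causes than those named were not tested. Among Cs libraries only, 560 rows were lower and 521 higher, the median bin had 6.37% of rows called, the difference in share of counts between late and early accessions was 0.221 percentage points (adjusted p = 0.0413, exact permutation test), that in expressed rows was -2.75 (fewer early libraries then had to pass), and sub-genome 1 minus sub-genome 2 was -0.118. Without the 100 rows of largest total count, the late minus early difference in share was -0.00443 and on chromosome 7 -0.0441, and sub-genome 1 minus sub-genome 2 was -0.153 percentage points. Leaving out each late accession gave 741 to 1298 lower and 522 to 845 higher rows, 6.9% to 11.8% of rows called in the median bin, and differences of 0.121 to 0.190 percentage points in share of counts and 0.113 to 0.828 in expressed rows. The expressed share was 37.4% over all libraries, shallow ones included, where the late minus early difference was 7, 49% at a CPM of at least 1, 49.6% after thinning and 48.8% among Cs libraries. For rows of at least 10 CPM the median spread was 0.234 and 3825 rows differed among early accessions. DESeq2's test called 1399 lower and 1019 higher rows, 14.2% of those tested, against 14.4% over all rows. The called share of sub-genome 1 was close to that over all rows in the other settings too, such as 6.93% against 7.03% among Cs libraries.

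Alternatives without CN 113672, without the early accessions that hold a library closest to another accession, without the chromosome 14 stretch and over all 20 chromosomes were chosen after seeing the data. Without the early accessions that hold such a library, 1064 rows were lower and 848 higher, 11.4% of those tested against 11.3% over all rows. Of 54 named rows refitted, 27 lost the call in at least 1 setting and none reversed. No paired analysis was possible because the labels give no replicate numbers shared between accessions. Depth limits rows near 1 CPM, where a library of median depth holds about 4 reads and the shallowest hold none.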
